A study of Mus musculus with 6 samples.

Results

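The leukocyte integrins are the adhesion receptors that white blood cells and platelets carry on their surface. The 10 genes described here were chosen by name as this family, with the difference in Itgam between HFD and control atria already known, so the values of that comparison describe the genes and are not independent evidence. Each name stood once in the deposited table, so the 10 genes are 10 of its 43432 genes. Of the 10, 8 had a mean of at least 10 normalized counts over the 6 samples and were tested, among 15275 genes tested in all, while Itgad and Itgae fell below that limit.

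C57/Bl6J wild-type mice received a high-fat diet (HFD, obese mice) or control chow (lean mice) from 6 weeks of age for 10 weeks, and RNA of their right and left atria was sequenced in 3 HFD and 3 control samples. All carried the same genotype and no other agent was given per the labels, which do not state whether a sample was 1 animal, so p-values measure the spread between these samples. The labels contradict each other. The diet in a sample's title, followed here, also stands in the header of the values, and the treatment field names the other diet for all 6 samples. If that field were right, every direction below would be turned round.

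An integrin is a pair of an alpha and a beta chain that spans the cell membrane. Chemokines and other signals inside a leukocyte switch the pair to a form that binds its ligand tightly, and the bound pair then signals back into the cell. The beta2 chain, encoded by Itgb2, pairs with 4 alpha chains of the CD11 group and serves firm adhesion, crossing of the vessel wall and uptake of opsonized particles. In the heart these receptors are carried mainly by resident macrophages and by leukocytes that arrive from the blood. In bulk tissue a change in the number of such cells and a change in RNA per cell cannot be told apart.

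Reads on genes ranged from 15874251 to 28971508 per sample, with control sample 2 the most deeply sequenced. A value of 3 reads, taken as the lowest signal, was 2.05 normalized counts in control sample 2 and 3.01 to 3.41 in the other samples (counting error only). Atrial myocyte markers (Nppa, Myl7, Myl4, Sln and Myh6) were abundant throughout, with summed levels of 862964 to 905884 normalized counts in the control samples. In HFD samples 1, 2 and 3 these sums were 557783, 664103 and 972027. HFD sample 3 thus stood apart from the other HFD samples, and it also stood apart for several integrin genes. Changes of the tested integrin genes that rest on it are therefore given with and without it.

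Itgam, Itgb2, Itgal and Itgb3, 4 of the 8 tested genes, had every HFD sample above every control sample, and none had every HFD sample below. Among all 15275 genes tested the shares were 8.86% above and 9.17% below. With limma and Benjamini-Hochberg adjustment over all genes tested, 1 of the 8, Itgam, was past the threshold of 0.05 and rose in HFD atria, against 0.484% of all genes, and none fell, against 0.262%. An unadjusted p under 0.05 was found for 4 of the 8, all higher, against 6.66% of all genes. The Wald test of DESeq2 on the recovered reads put 3 of the 8 past the threshold, adding Itgb2 and Itgb3, against 2.2% of the genes it adjusted. The median log2 fold change of the 8 genes was 0.64, and 0.50 without HFD sample 3, beside 0.00 over all genes tested.

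**Figure D1:**
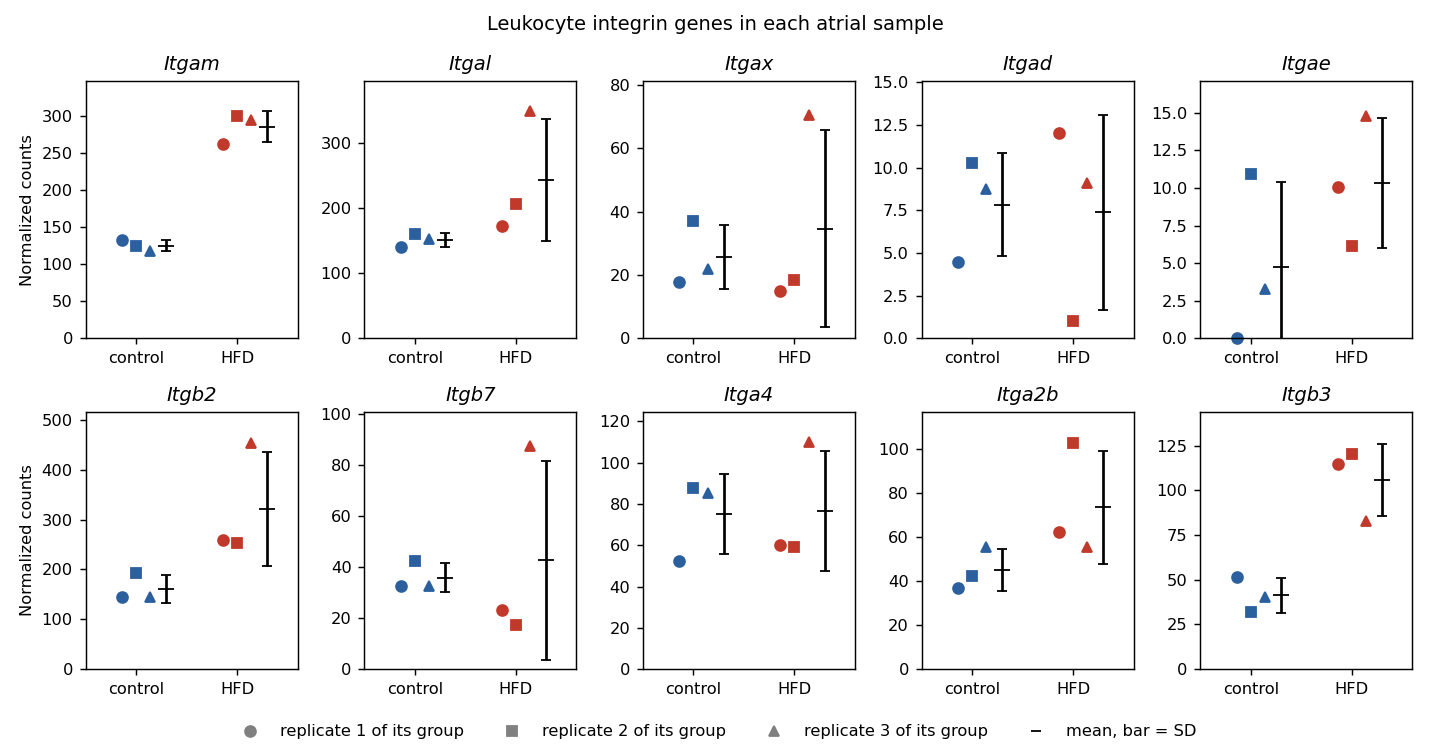
Normalized counts of the 10 integrin genes in each atrial sample, 1 panel per gene, with control samples in blue, HFD samples in red, the replicate by symbol, and the mean with its SD in black (n = 3 each). The groups are separate for Itgam, Itgal, Itgb2 and Itgb3, HFD sample 3 (red triangle) is the highest of the 6 for 6 of the 10 genes, and the lower bar of Itgae in controls is cut at 0.

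Itgam encodes CD11b, the alpha chain of complement receptor 3, which binds the complement fragment iC3b, fibrinogen and ICAM-1 on monocytes, macrophages and neutrophils. It had 262, 299.8 and 295 normalized counts in HFD samples 1 to 3 and 132, 125 and 118 in control samples 1 to 3. The lowest HFD sample thus lay far above the highest control sample, and the spread within each group was narrow, with coefficients of variation of 7.19% and 5.62%. The means were 286 ± 20.6 and 125 ± 7.04 (SD, n = 3 each). On the log2 scale Itgam was 1.18 higher in HFD (standard error 0.16, 95% confidence interval 0.84 to 1.53, adjusted p = 0.0106 from limma). The exact permutation p was 0.1, the smallest that 3 samples against 3 allow.

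The size of the Itgam difference moved little, but its call rested on few samples. With each sample omitted once its log2 difference spanned 1.14 to 1.24, and it was 1.16 without HFD sample 3 (adjusted p = 0.0090 from limma). The adjusted p was 0.0520 without HFD sample 2, 0.0678 without control sample 2 and 0.0613 without control sample 3, each past the threshold of 0.05 on the high side. Without a variance trend in limma it was 0.0854, and in edgeR with TMM normalization 0.0126.

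Itgam lies on chromosome 7 of GRCm38 (128062640-128128160, plus strand) as the first of a cluster of CD11 genes. Itgax (128129547-128150656) follows 1386 bases after the deposited end of Itgam, or 11055 bases after its end in the GENCODE release used for exon lengths, and Itgad (128154376-128223816) after a further 3719 bases, while Itgal (127296260-127335137) lies 727502 bases before Itgam, all on the plus strand. The deposited interval of Itgam ends where the readthrough gene Gm49368 of a later GENCODE release ends, so reads of Gm49368 may be counted within Itgam. The neighbours Itgam and Itgax did not share the pattern of the samples, and a part of their promoters in this was not tested. The 250 bases before the RefSeq start of each are shown (GRCm38.p6, plus strand, 5′ to 3′). The Itgax window ends at 128129549, just past the deposited start of Itgax. Capitals mark the letters GAGGAA on either strand, the core bound by the myeloid factor PU.1.

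Itgam chr7:128062390-128062639: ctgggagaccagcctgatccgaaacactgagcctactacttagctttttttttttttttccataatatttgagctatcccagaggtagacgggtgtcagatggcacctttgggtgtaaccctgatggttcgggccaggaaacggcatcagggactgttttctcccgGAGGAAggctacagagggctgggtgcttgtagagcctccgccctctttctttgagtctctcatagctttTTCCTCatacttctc
Itgax chr7:128129300-128129549: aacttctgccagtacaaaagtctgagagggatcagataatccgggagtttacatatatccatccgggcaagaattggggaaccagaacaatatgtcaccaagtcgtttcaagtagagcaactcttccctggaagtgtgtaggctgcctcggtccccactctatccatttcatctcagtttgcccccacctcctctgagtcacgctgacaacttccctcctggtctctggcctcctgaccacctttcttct

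The Itgam stretch held GAGGAA at 2 places, 84 bases before the start on the plus strand and 15 bases before it on the minus strand, and the Itgax stretch held it at none. The same letters stood in 7639 of 32851 promoters of the table (23.25%). Promoters of 5 of the 10 genes were in the table, and Itga2b had 2 matches, Itga4 and Itgb7 none. A match describes the letters of this window and not a bound site.

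Itgb2 encodes CD18, the beta2 chain without which none of the CD11 chains reaches the cell surface. It is on chromosome 10 (77530252-77565708, plus strand). It had 259, 253 and 453 normalized counts in HFD samples 1 to 3 and 146, 194 and 144 in control samples 1 to 3. The groups did not overlap, and HFD sample 3 was 1.75 times as high as the next highest sample. The means were 322 ± 114 and 161 ± 28.2 (SD, n = 3 each). On the log2 scale Itgb2 was 0.95 higher in HFD (standard error 0.24, interval 0.43 to 1.48, adjusted p = 0.105 from limma and 0.00733 from DESeq2). It was 0.68 higher without HFD sample 3 (limma, adjusted p = 0.114).

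Itgal encodes CD11a, which with CD18 forms LFA-1, the receptor for ICAM-1 on lymphocytes and other leukocytes. It had 173, 207 and 349 normalized counts in HFD samples 1 to 3 and 140, 161 and 152 in control samples 1 to 3. Again the groups did not overlap, but HFD sample 1 lay close to the highest control sample. The log2 fold change was 0.62 (standard error 0.24, adjusted p = 0.336 from limma), and without HFD sample 3 it was 0.33 (adjusted p = 0.468).

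Itgax encodes CD11c, a chain of many dendritic cells and of some macrophages. It had 15.1, 18.4 and 70.4 normalized counts in HFD samples 1 to 3 and 17.9, 37.0 and 21.9 in control samples 1 to 3. HFD sample 3 was 1.91 times as high as the next highest sample, while HFD samples 1 and 2 lay within or below the control range. The log2 fold change of 0.15 (interval -1.13 to 1.42, adjusted p = 0.953 from limma) turned to -0.53 without HFD sample 3 (adjusted p = 0.682). Of the 50-base words in the Itgax transcripts, 8.02% also occur in another gene of the table, so uniquely mapped reads miss part of it.

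Itgad encodes CD11d, a chain of some tissue macrophages. It was listed at 12.1, 1.02 and 9.09 normalized counts in HFD samples 1 to 3 and at 4.48, 10.3 and 8.74 in control samples 1 to 3, which rest on 1 to 15 reads. The groups overlapped, and HFD sample 2 was under the limit of 3 reads. Of the 50-base words in the Itgad transcripts, 9.20% also occur, on either strand, in another gene of the table. Cox6a2, a subunit of cytochrome oxidase with a mean of 11444 normalized counts, lies inside Itgad on the opposite strand, and no source says whether strand was used to count reads.

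**Figure D2:**
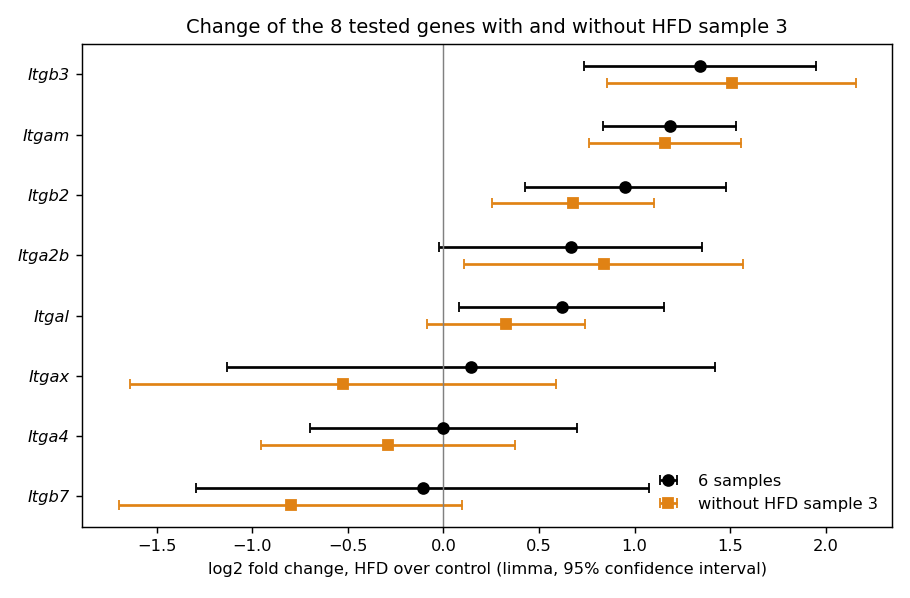
Log2 fold change of HFD over control with its 95% confidence interval from limma for the 8 tested genes, with all 6 samples (black circles) and without HFD sample 3 (orange squares). Itgam, Itgb2 and Itgb3 stay above 0 both ways, and Itgax moves from 0.15 to -0.53.

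Levels of different chains were compared per kilobase of exon. Itgb2 was the highest of the 10 genes in both groups, with 105 ± 37.3 normalized counts per kb in HFD and 52.8 ± 9.23 in control samples (SD, n = 3 each). Itgam followed with 56.9 ± 4.09 and 24.9 ± 1.401, and Itgal with 37.0 ± 14.2 and 23.0 ± 1.59. Within a group the sample ranges of Itgb2 and Itgam did not overlap, whereas those of Itgam and Itgal did. In control samples Itgb7 (12.96), Itga2b (8.26), Itgb3 (7.01), Itga4 (5.38) and Itgax (5.33 normalized counts per kb) came next, and from Itga2b to Itgax the ranges of neighbours overlapped. In HFD samples the order was Itgb3 (18.0), Itgb7 (15.4), Itga2b (13.5), Itgax (7.21) and Itga4 (5.48), with overlapping ranges of all neighbours. Itgad and Itgae were the lowest, each with a mean of 2.25 normalized counts per kb or less.

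The 4 CD11 chains together amounted to 84.3, 95.2 and 129 normalized counts per kb in HFD samples 1 to 3 and to 52.3, 59.4 and 53.1 in control samples 1 to 3. Divided by the level of Itgb2 per kb in the same sample, this sum was 1.003 ± 0.142 in HFD and 1.052 ± 0.102 in control samples (SD, n = 3 each, exact permutation p = 0.7). The ratio ranged only from 0.866 to 1.15 over the 6 samples, although Itgb2 itself ranged from 47.3 to 148 normalized counts per kb. Alpha and beta transcripts of this group were thus present at similar levels per kb in every sample.

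The make-up of the sum was less even. Itgam made up 61.9%, 62.7% and 45.7% of it in HFD samples 1 to 3 and 50.3%, 42.0% and 44.2% in control samples 1 to 3. HFD samples 1 and 2 were above every control sample and HFD sample 3 was among them. The difference of the means was 11.3 percentage points (exact permutation p = 0.2), and it was also 11.3 when the exons of Gm49368 were added to the length of Itgam. Without HFD sample 3 it was 16.8 percentage points. HFD sample 3 had the most CD11 RNA and an Itgam level per kb (58.8) like those of HFD samples 1 and 2 (52.2 and 59.7), with more Itgal and Itgax beside it.

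**Figure D3:**
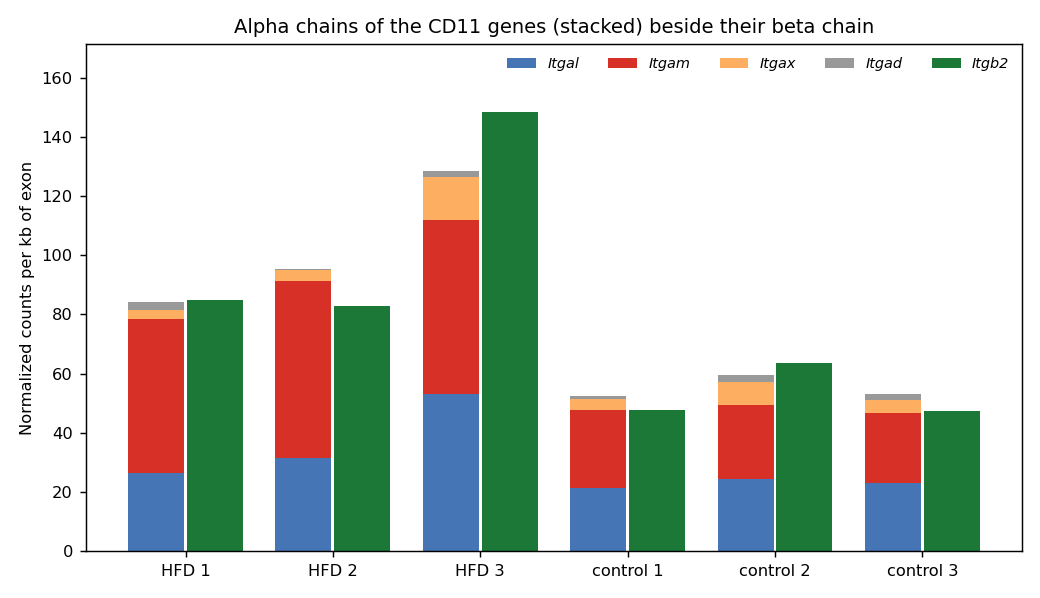
Normalized counts per kb of exon of the 4 CD11 alpha chains (stacked bars) and of their beta chain Itgb2 (green bars) in each sample. The stack and the green bar are of similar height in every sample, with ratios of 0.866 to 1.15.

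Ratios between chains were compared within samples for 9 pairs of genes and for Itgam against the mean log2 level of 12 macrophage markers, 10 ratios in all. None can reach an exact permutation p below 0.1, and the smallest adjusted p (Benjamini-Hochberg over the 10) was 0.333. The log2 ratio of Itgam to Itgb2 was -0.12 ± 0.45 in HFD and -0.35 ± 0.25 in control samples (SD, n = 3 each, exact permutation p = 0.4), a difference of 0.23 that lay between 0.05 and 0.48 with 1 sample left out in turn. The ratio of Itgal to Itgb2 was lower in every HFD sample than in every control sample, with a difference of -0.33 (exact permutation p = 0.1). The ratio of Itgam to Itgal differed by 0.56 (exact permutation p = 0.2), and by 0.83 without HFD sample 3. HFD samples 1 and 2 (0.60 and 0.53) lay above every control sample (-0.36 to -0.08), and HFD sample 3 (-0.24) lay among them. With 3 samples against 3 this test cannot decide whether Itgam changed more than Itgal.

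Itgam was also set against markers of the macrophages that carry it. The log2 ratio was -1.12, -0.83 and -1.06 in HFD samples 1 to 3 and -1.93, -1.91 and -1.81 in control samples 1 to 3. Every HFD sample lay above every control sample, with a difference of 0.88 (exact permutation p = 0.1) that stayed between 0.79 and 0.94 with 1 sample left out in turn. The macrophage markers themselves had a median log2 fold change of 0.36, with 10 of 12 higher. None was past the threshold of limma or DESeq2, and 6 had an unadjusted p under 0.05 from limma, against 12.2% of all genes tested. The summed level of the markers was 12779 to 14978 normalized counts in HFD and 9371 to 12371 in control samples, without overlap. For 4 of the 12 (Cd68, C1qb, C1qc and Cd14) every HFD sample was above every control sample, against 8.86% of all genes tested. For 8 the groups overlapped. The log2 fold changes of the 12 ran from -0.17 (Cx3cr1) to 0.60 (Cd14, 0.31 without HFD sample 3). Adgre1, the F4/80 antigen, had one of 0.23 (0.13 without HFD sample 3). Csf1r, the receptor for macrophage colony-stimulating factor, had one of -0.01, and both were below the median of the list.

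**Figure D4:**
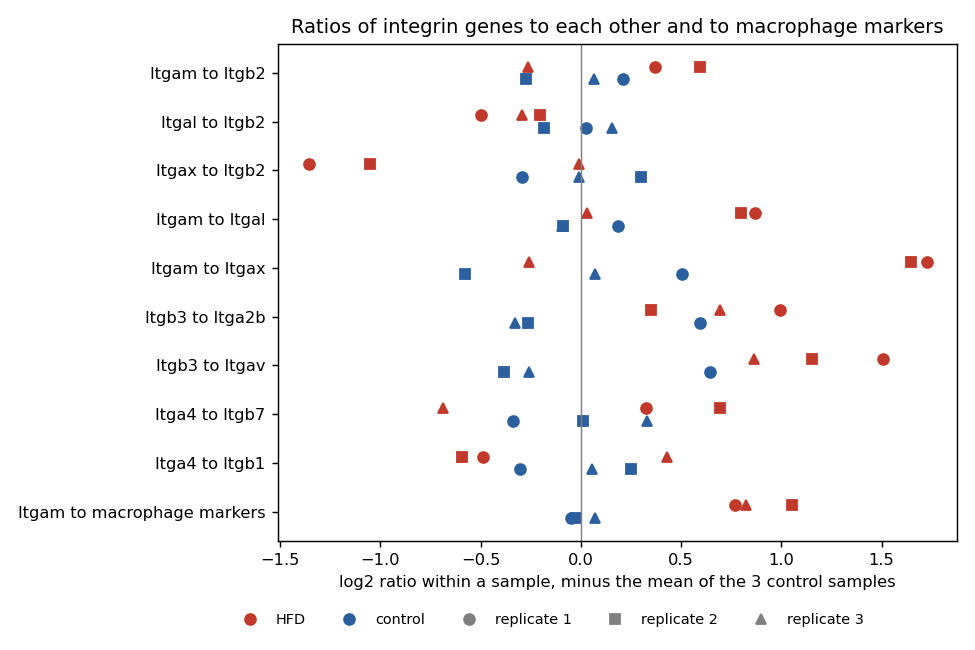
Log2 ratio within each sample for 9 pairs of integrin genes and for Itgam against 12 macrophage markers, shown as the distance from the mean of the 3 control samples, with HFD in red, control in blue and the replicate by symbol. For Itgam to macrophage markers and Itgb3 to Itgav all HFD points lie to the right of all control points, and for Itgal to Itgb2 to the left.

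The beta7 chain pairs with CD103, encoded by Itgae, on lymphocytes and dendritic cells of epithelia, where it binds E-cadherin, and with the alpha4 chain on lymphocytes that home to the gut. Itgb7 had 23.1, 17.3 and 87.5 normalized counts in HFD samples 1 to 3 and 32.5, 42.4 and 32.8 in control samples 1 to 3. HFD samples 1 and 2 were below and HFD sample 3 above every control sample, 2.06 times the next highest. The log2 fold change of -0.11 (interval -1.29 to 1.08, adjusted p = 0.964 from limma) was -0.80 without HFD sample 3 (adjusted p = 0.400).

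Itga4 encodes the alpha4 chain of VLA-4, which binds VCAM-1 and fibronectin. It had 60.3, 59.1 and 110.2 normalized counts in HFD samples 1 to 3 and 52.6, 87.6 and 85.3 in control samples 1 to 3, with overlapping groups and means of 76.5 ± 29.1 and 75.2 ± 19.6 (SD, n = 3 each). On the log2 scale the difference was 0.00 (interval -0.70 to 0.70, limma adjusted p = 1.00). Without HFD sample 3 the difference was -0.29 (adjusted p = 0.706 from limma). Of the 50-base words of Itga4, 7.48% also occur, on either strand, in another gene of the table. Cerkl, with a mean of 27.9 normalized counts, overlaps Itga4 on the opposite strand.

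Itgae was listed at 10.0, 6.12 and 14.8 normalized counts in HFD samples 1 to 3 and at 0, 10.95 and 3.28 in control samples 1 to 3. The control value of 0 allows up to 3.36 normalized counts, and the groups overlapped. Itgae and Itga4 together stood at 0.674 ± 0.284 of the level of Itgb7 per kb in HFD and at 0.487 ± 0.144 in control samples (SD, n = 3 each, exact permutation p = 0.4).

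Itgb3 and Itga2b encode the chains of the platelet fibrinogen receptor, and the beta3 chain pairs also with the alphav chain of vessel and matrix cells. Itgb3 (chromosome 11, 104608000-104670476, plus strand) had 115, 120.3 and 82.9 normalized counts in HFD samples 1 to 3 and 51.5, 32.2 and 40.4 in control samples 1 to 3. The groups did not overlap, and HFD sample 3 was here the lowest of the HFD samples. The means were 106 ± 20.1 and 41.4 ± 9.70 (SD, n = 3 each). Its log2 difference of 1.34 (standard error 0.27, interval 0.74 to 1.95) was the largest of the 8. The adjusted p was 0.0582 from limma, 0.0262 without HFD sample 3 (where 2.24% of all genes were called), 0.00323 from DESeq2 and 0.0703 from edgeR with TMM normalization.

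Itga2b, the alphaIIb chain of platelets and megakaryocytes, had 62.3, 103 and 55.7 normalized counts in HFD samples 1 to 3 and 36.95, 42.4 and 55.7 in control samples 1 to 3. HFD sample 3 lay just below control sample 3, so the groups overlapped. The log2 fold change was 0.67 (interval -0.02 to 1.35, adjusted p = 0.426 from limma). Without HFD sample 3 it was 0.84 (interval 0.11 to 1.57, adjusted p = 0.266 from limma). The log2 ratio of Itgb3 to Itga2b differed by 0.68 with overlapping groups (exact permutation p = 0.2). That of Itgb3 to Itgav, the alphav gene, was -2.88 ± 0.32 in HFD and -4.06 ± 0.56 in control samples (SD, n = 3 each) and differed by 1.17 without overlap (exact permutation p = 0.1).

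Platelet markers were read beside these values. Of 9 markers 3 could be tested, none was past the threshold of limma or DESeq2 or at an unadjusted p under 0.05, and their median log2 fold change was -0.17. Their summed level was 260.1 to 328 normalized counts in HFD and 235 to 324 in control samples, mostly Pf4 with a log2 fold change of 0.16. Gp1ba had one of -0.96 with overlapping groups. Ppbp, too low to be tested, had 8.04, 9.18 and 4.54 normalized counts in HFD and 2.24, 1.37 and 1.09 in control samples, without overlap and with control samples under 3 reads. Gp6 was listed at 0 in all 6 samples, and Gp9 at 0 in 5 of them.

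HFD sample 3 had the highest of the 6 values for Itgb2, Itgal, Itgax, Itgb7, Itga4 and Itgae, 6 of the 10 genes. Of the 8 tested it was highest for 5, against 20.3% of all genes tested. The pan-leukocyte marker Ptprc, which encodes CD45, had 362 normalized counts in HFD sample 3 and 121 to 247 in the other samples. NK markers summed to 55.7 normalized counts in HFD sample 3 and to 8.74 to 15.7 elsewhere, and the cytotoxic granule gene Nkg7 alone had 38.6 there. Klrb1c was also highest there, at 11.4. Gzma was not, with 5.68 there and 9.18 in HFD sample 2, and Ncr1 was listed at 0 there. T lymphocyte markers summed to 158 in HFD sample 3 and to 79.5 to 117 elsewhere, with Cd8a at 29.5, Cd3d at 20.4 and Cd3e at 15.9 (Cd3e had 2.04 to 14.6 elsewhere). Cd247, the most abundant T lymphocyte marker, went the other way, with 32.9 in HFD sample 3 and 46.2 to 79.8 elsewhere. Monocyte markers summed to 349.8 in HFD sample 3 and to 130 to 227 elsewhere, of which Fcgr4 alone had 122 in HFD sample 3 and 3.36 to 49.3 elsewhere. The monocyte markers Ly6c2 and Ccr2 were highest in control sample 2 and HFD sample 2. The part of these cells in the values of Itgal, Itgb7 and Itgax was not tested.

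**Figure D5:**
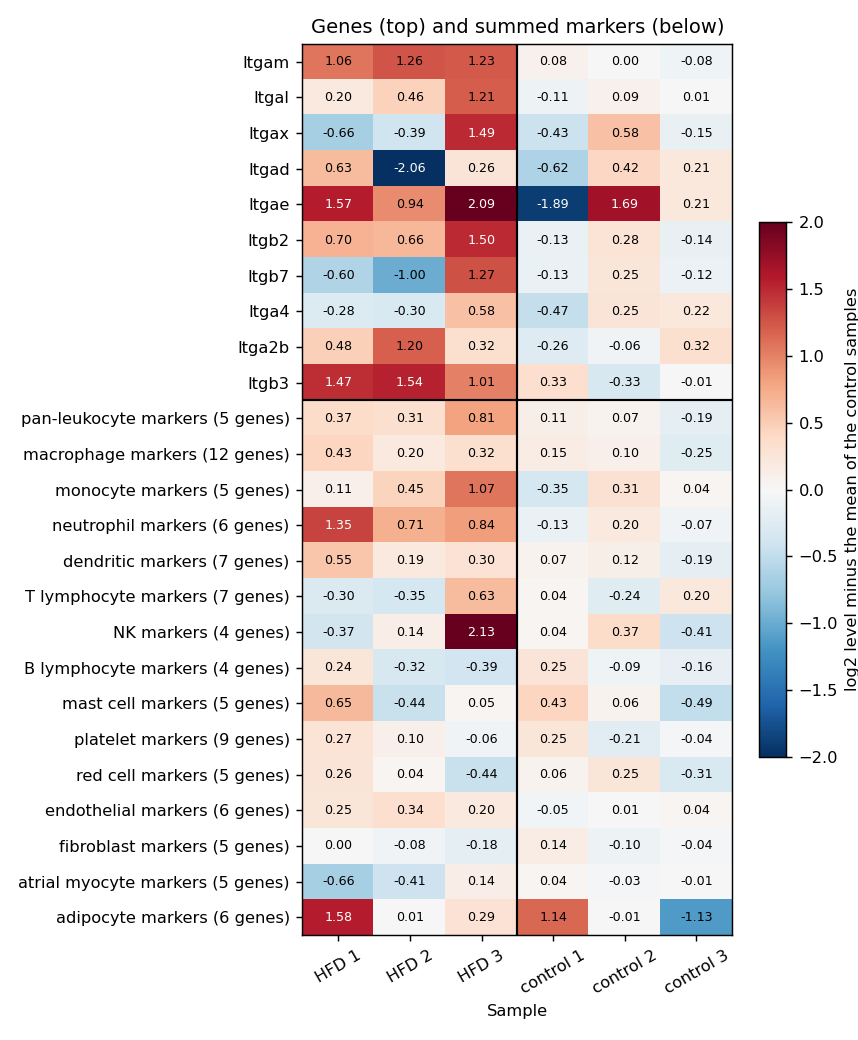
Log2(value + 1) of the 10 integrin genes (top) and of the summed markers of 15 cell types (below) in each sample, minus the mean of the 3 control samples, in red above and blue below it. Itgam and Itgb3 are above 1 in all 3 HFD samples, while Itgal, Itgax, Itgb7, NK and T lymphocyte markers are highest in HFD sample 3.

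Neutrophils also carry Itgam, and their markers were low. Ly6g, their defining marker in mice, was listed at 0 in 5 samples and at 1.02 in HFD sample 2. S100a8 had 14.1, 5.10 and 2.27 normalized counts in HFD samples 1 to 3 and 0, 4.79 and 0 in control samples 1 to 3. S100a9 had 18.1, 9.18 and 7.95 in HFD and 3.36, 1.37 and 2.19 in control samples, without overlap, with control values of 3, 2 and 2 reads. Both genes were under the mean of 10 needed for the test. Cxcr2 went the other way, with 3.01, 0 and 0 in HFD and 2.24, 1.37 and 2.19 in control samples, on 3 reads or fewer in each. The 6 neutrophil markers summed to 55.1 to 86.4 normalized counts in HFD and to 30.2 to 38.3 in control samples. The only one tested, Csf3r, had 47.2, 38.8 and 49.98 normalized counts in HFD and 24.6, 30.8 and 26.2 in control samples (log2 fold change 0.71, adjusted p = 0.389 from limma). The groups did not overlap for Csf3r either, and the part of neutrophils in the Itgam difference was not tested.

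Markers of further cell types were as follows. The summed dendritic markers were 1023 to 1317 normalized counts in HFD and 788 to 975 in control samples, without overlap. Of the 6 dendritic genes tested, however, the groups overlapped for 5, all but Xcr1, and Clec9a was lower in HFD (log2 fold change -0.15). The pan-leukocyte markers summed to 1343 to 1896 and 949 to 1170.1, also without overlap. Of these 5 genes, Cd53 and Laptm5 separated the groups, while Ptprc, Cd52 and Cd37 overlapped. Over all genes tested, 8.86% had every HFD sample above every control sample. B lymphocyte markers (20.4 to 32.1 and 24.0 to 32.5), mast cell markers (134 to 285 and 129 to 244), red cell markers (1382 to 2243 and 1514 to 2232), fibroblast markers (26228 to 29659 and 27650 to 32702) and adipocyte markers (1257 to 3718 and 568 to 2747) overlapped between the groups. Endothelial markers were 15372 to 16980.1 in HFD and 12934 to 13755 in control samples, without overlap. Over the 6 genes the median log2 fold change was 0.15, and the groups overlapped for 4 of them. The gene with the largest difference was Pecam1, through which leukocytes pass between endothelial cells, at 0.57 higher in HFD on the log2 scale (adjusted p 0.0504 by limma and 0.000276 by DESeq2).

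Partners, ligands and signaling genes around the family were taken from 5 lists of 62 genes, of which 53 were tested. In limma none was past the threshold (0.746% of all genes were), and 11 had an unadjusted p under 0.05. DESeq2 put 2 of the 53 past it, C3 and Cd44 (3.58% of all genes), and edgeR with TMM or RLE normalization none. Of the 53 genes 36 were higher in HFD, with a median log2 fold change of 0.17 (0.08 without HFD sample 3). The share of all genes with an unadjusted p under 0.05 was 12.2%.

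Among the ligands, 15 of 20 genes were tested and 8 were higher, with a median log2 fold change of 0.01. C3, the source of the fragment iC3b that CD11b binds, had 10601, 12308 and 9482 normalized counts in HFD and 8626, 7495 and 6569 in control samples, without overlap (log2 fold change 0.51, adjusted p = 0.142 from limma and 0.0174 from DESeq2). Icam1, the endothelial ligand of CD11a and CD11b, had 1074 in HFD sample 3 and 567 to 699.6 in the other samples (log2 fold change 0.34, and 0.11 without HFD sample 3). Vcam1, the ligand of VLA-4, had a log2 fold change of -0.07 (-0.31 without HFD sample 3) and Vwf, which the platelet receptor binds, one of 0.36. The fibrinogen genes Fga, Fgb and Fgg and the gut vessel ligand Madcam1 were listed at 0 in all 6 samples.

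Among the selectins and rolling receptors, which slow leukocytes before integrins hold them, 5 of 6 tested genes were higher, with a median log2 fold change of 0.47. Cd44, a hyaluronan receptor, had 554, 597 and 764 normalized counts in HFD and 409, 416 and 461 in control samples (log2 fold change 0.56, adjusted p = 0.124 from limma and 0.0317 from DESeq2). Sele, the E-selectin of activated endothelium, had 21.1, 37.7 and 40.9 in HFD and 19.0, 9.58 and 18.6 in control samples (log2 fold change 1.04, adjusted p = 0.395 from limma), without overlap.

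Of the genes that switch integrins on from inside the cell, 12 of 13 were tested, 7 were higher and the median log2 fold change was 0.07, which turned to -0.02 without HFD sample 3. Tln1 (talin) had a log2 fold change of 0.11 and Fermt3 (kindlin-3) one of 0.21, and without HFD sample 3 these were -0.04 and 0.003. Rasgrp2, the exchange factor that activates Rap1, had 452, 489.5 and 555 normalized counts in HFD and 353, 372 and 327 in control samples (log2 fold change 0.51, adjusted p = 0.131 from limma). Of the 14 genes that signal from bound integrins, 11 were higher, with a median of 0.28 (0.17 without HFD sample 3). For 4 of the 14, Syk, Vav1, Pik3cg and Nckap1l, every HFD sample was above every control sample, against 8.86% of all genes tested. Their log2 fold changes were 0.40 to 0.51. The adaptor gene Tyrobp had a log2 fold change of 0.33, with overlapping groups.

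Of the partner chains outside the family, 6 of 7 were tested, 5 were higher and the median log2 fold change was 0.23. Itgb1, the beta1 chain with which alpha4 forms VLA-4, had a log2 fold change of 0.22 and Itgav one of 0.17, with overlapping groups. The log2 ratio of Itga4 to Itgb1 differed by -0.22 (exact permutation p = 0.6) and that of Itga4 to Itgb7 by 0.11 (exact permutation p = 0.9).

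The 5 tested genes whose log2(normalized count + 1) followed that of Itgam most closely over the 6 samples were Ms4a4a, Mafg, Cdkn1a, Slc7a5 and Slc25a22, with Pearson's r of 0.992 to 0.996. Ms4a4a, a membrane protein gene of macrophages, had 67.3, 79.5 and 71.6 normalized counts in HFD and 25.8, 26.0 and 25.1 in control samples. Among the 5 closest to Itgb2 were Egln3, Sgk1, Cldn5 and Fbn1, with r of 0.992 to 0.994. Egln3, a prolyl hydroxylase of the oxygen-sensing pathway, had 1018, 983 and 1536 normalized counts in HFD samples 1 to 3 and 698, 803 and 720.3 in control samples 1 to 3, with HFD sample 3 the highest as for Itgb2. These 6 points share 2 diets and 1 scaling per sample, so any gene split in the same way ranks high.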

How the data were processed

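RNA of 3 HFD and 3 control atrial samples was sequenced by the authors as directional single-end reads, aligned with STAR to GRCm38 and assigned to genes with Salmon. The deposited signal per gene is the authors' read count divided by 1 size factor per sample (normalized counts). All values were whole multiples of what 1 read is worth (100% within 0.01), which gave the reads. The authors also deposited their own log2 fold changes, p-values and rank scores from DESeq2, which were not used. The design assumed that counts might be given. As the values were normalized, limma 3.58.1 (R 4.3.3; trend) on log2(value + 1) was run where the mean was at least 10, with Benjamini-Hochberg adjustment, a threshold of 0.05 and no covariates. The log2 scale with this pseudocount understates changes of low genes. DESeq2 1.42.0 (Wald test) and edgeR 4.0.16 (quasi-likelihood) were run on the recovered reads. The test was tested on simulated data. GENCODE named 42462 of 43432 identifiers, and exon lengths come from GENCODE M21. Single values have two-sided exact permutation tests (scipy 1.17.1). Genes named are the 10 members, list genes fixed by role and the 5 closest patterns, plus genes chosen after their values were seen (Cd8a, Cd3d, Nkg7, Csf3r, C3, Cd44, Sele, Pecam1, Rasgrp2 and others of the lists). The members and lists were chosen with earlier results of these data known. Some genes of the lists and of the closest patterns are not reported here.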

Additional observations from a re-analysis of the deposited data

How the results depend on the processing

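Of the 8 tested integrin genes, 1 was past the threshold in limma. This count was 0 without a variance trend (4 at an unadjusted p under 0.05 with it, 3 without), 2 with at least 10 in every sample, 3 with DESeq2, and 0 to 2 with 1 sample left out in turn (0 without HFD sample 2, control sample 2 or control sample 3, and 2 without HFD sample 3). Over all genes, 114 in limma became 0 without the trend (1717 at an unadjusted p under 0.05), 483 with DESeq2 and 14 to 342 with 1 sample left out in turn, the highest without HFD sample 3. Of the 119 companion genes tested, the count of 0 became 1 with at least 10 in every sample, 3 with DESeq2 and 0 to 3 with 1 sample left out in turn. Directions held for Itgam, Itgb2, Itgal, Itgb3 and Itga2b in all alternatives run. That of Itgax ran from -0.53 (without HFD sample 3) to 0.55 with 1 sample left out in turn, and was -0.07 without control sample 1. That of Itgb7 turned to 0.24 with DESeq2, 0.23 with edgeR TMM or RLE, and ran from -0.80 to 0.33 with 1 sample left out in turn. Itga4, at 0.00, was 0.0204 with quantile normalization, 0.0165 with DESeq2, 0.0158 with edgeR RLE, 0.0141 with edgeR TMM and -0.29 to 0.15 with 1 sample left out in turn. The log2 ratio of Itga4 to Itgb7 ran from -0.18 (without HFD sample 2) to 0.51, with -0.06 without control sample 1. The cause was not tested. Replicate numbers did not pair samples (correlations of same-numbered samples 0.116, -0.027 and -0.004). With the replicate number as a block, 1 integrin gene, 157 of all genes and 0 companion genes were called. At the depth of these libraries, Itgad and Itgae rest on 16 reads or fewer per sample.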
